A study of Hordeum vulgare with 12 samples.

Results

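The regions described here are VRS5 binding peaks that came in pairs with their summits 3.6 to 3.75 kb apart on the same barley chromosome. They were selected on the measured summit positions alone: each peak on chromosomes 1H to 7H with another summit at that distance was taken, unless it also had a summit 9.9 to 10.25 kb away, with the upper limit of each range left out here and throughout. This gave 2288 member peaks, 2.30% of the 99518 VRS5 peaks on 1H to 7H, and 49 further peaks on sequence outside these chromosomes were not considered. The full list held 1182 such pairs with 2352 peaks, of which 64 peaks were left out for the longer distance. Both partners were members in 1119 pairs, 62 members had lost their partner in this way, and 12 members belonged to 2 pairs. Peaks in pairs 3.2 to 3.35 kb apart, chosen by the same steps, served as the comparison, with 714 peaks in 338 pairs after 10 peaks that were also members had been set aside.

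VRS5, also known as INTERMEDIUM-C, is the barley ortholog of the maize TEOSINTE BRANCHED 1 protein, a transcription factor of the plant TCP family that holds back the outgrowth of axillary buds and, in barley, of the lateral spikelets. TCP proteins bind DNA as dimers at short GC-rich sites. In DNA affinity purification sequencing (DAP-seq) a tagged factor made in vitro is mixed with fragments of purified genomic DNA and the captured fragments are sequenced, so that binding is read on naked DNA, without the chromatin of the living cell.

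The study used 12 DAP-seq libraries, 6 with VRS5-FLAG as bait (the protein of cultivar Bowman, called TB1 in the labels) and 6 with GFP-FLAG as control. All 12 shared the same kind of input, genomic DNA of developing inflorescences of cultivar Morex, taken 4 weeks after sowing at about Waddington stage 4, and both baits were made in a wheat germ system. The libraries of each bait were pooled by the authors before peak calling, so that a peak carries 1 pileup, 1 fold enrichment over GFP-FLAG and 1 q value. No value per library was used here, the depth per library is unknown here, and no test between groups was possible. The intervals given are 95% intervals for counting error only, which treat peaks as independent although the partners of a pair lie close together.

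The distance that chose the pairs stood out narrowly from its surroundings. In classes of 50 bp, with the same peaks left out, the 19 classes between 3 and 4.3 kb that lay outside 3.5 to 3.85 kb held 100 to 148 pairs each, with a median of 111. Those at 3.6 to 3.65, 3.65 to 3.7 and 3.7 to 3.75 kb held 254, 427 and 438 pairs. The next class, 3.75 to 3.8 kb, still held 175. The 1119 member pairs were 3.31 times as many as the 338 comparison pairs (95% interval 2.93 to 3.75). These counts describe what the rule used and are no finding about the members. At the limits of the range, the 28 pairs 3.6 to 3.61 kb apart had a median fold enrichment of 4.45 and the 32 pairs 3.59 to 3.6 kb apart one of 4.245. The 62 pairs 3.74 to 3.75 kb apart and the 57 pairs 3.75 to 3.76 kb apart had median fold enrichments of 4.35 and 4.35.

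Within the range, the pairs fell into a lower and an upper group of distances. In classes of 10 bp the count rose to 107 pairs at 3.66 to 3.67 kb (95% Poisson interval 87.7 to 129), fell to 64 pairs at 3.69 to 3.7 kb (49.3 to 81.7), and rose again to 104 pairs at 3.71 to 3.72 kb (85.0 to 126) and 101 pairs at 3.72 to 3.73 kb (82.3 to 123). The median distance over all pairs was 3682 bp, with quartiles of 3652.5 and 3717 bp, close to the dip between the groups. Each of the 7 chromosomes held pairs of both groups, 53 to 85 pairs at 3.64 to 3.69 kb and 52 to 74 pairs at 3.7 to 3.75 kb. The groups were seen in the counts and not set beforehand. Measured between peak midpoints in place of summits, no dip was seen at that place, with 75 pairs at 3.69 to 3.7 kb. The midpoint counts were 83 at 3.66 to 3.67 kb, 61 at 3.67 to 3.68 kb, 69 at 3.68 to 3.69 kb and 84 at 3.73 to 3.74 kb, so that a lower count lay between the higher ones at a shorter distance. The peaks of the lower and upper groups had similar median fold enrichments, 4.45 and 4.42, and similar median GFP-FLAG backgrounds, 9.73 and 9.87 reads. Their median widths were 239.5 and 233 bp, and 7.42% and 10.96% of them lay within 15 kb of a protein-coding gene. No interval was computed for these values.

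**Figure D1:**
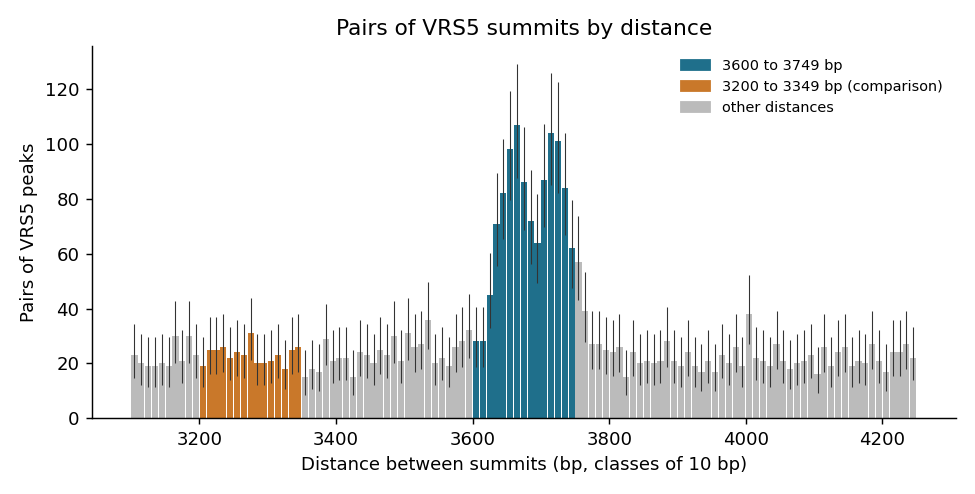
Number of pairs of VRS5 summits (vertical axis) by the distance between them in classes of 10 bp (horizontal axis, bp), with 95% Poisson intervals as thin lines. The pairs 3.6 to 3.75 kb apart, in blue, rise to 107 at 3.66 to 3.67 kb and 104 at 3.71 to 3.72 kb with 64 at 3.69 to 3.7 kb between them, and the comparison pairs, in orange, stay near the level of the other distances.

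The member peaks were narrow and stood on little background. Their median width was 240 bp (95% interval 236 to 243, quartiles 202 and 298, range 161 to 1387), against 271 bp (262 to 283) in the comparison pairs and 273 bp over all peaks on 1H to 7H. Peaks under 200 bp made up 23.0% of the members and 13.2% of the comparison peaks, a difference of 9.82 percentage points (95% interval 6.66 to 12.7). At the other end, 8.30% of the members and 18.6% of the comparison peaks were 400 bp or wider. The VRS5-FLAG pileup at the summit was 49 reads at the median, against 55 and 54 reads. The GFP-FLAG background, derived here as the pileup plus 1 divided by the fold enrichment, less 1, had a median of 9.87 reads in the members (9.73 to 9.87), 11.6 in the comparison peaks (11.4 to 12.0) and 10.9 over all peaks. This is the local level that the peak caller scaled and held above a minimum, not a plain read count, and 15 members, 10 comparison peaks and 2145 of all peaks lay within 0.001 of its lowest value of 6.91. A background over 13 reads was found for 15.04% of the members (13.6 to 16.6), 34.3% of the comparison peaks (30.9 to 37.9) and 28.3% of all peaks. In peaks of pairs at 2 other frequent distances, 5.1 to 5.35 kb and 6.45 to 6.65 kb, the median widths were 265 and 264 bp and the median background was 10.4 reads in both, between the members and the comparison.

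Fold enrichment set the members apart less clearly. Its median was 4.45 (95% interval 4.41 to 4.48, range 2.74 to 10.95) in the members, 4.29 (4.24 to 4.39) in the comparison peaks and 4.38 over all peaks. This order did not hold among peaks of similar background. The medians were 4.802 in the members and 4.94 in the comparison peaks where the background was under 9 reads, 4.55 and 4.62 at 9 to 10 reads, 4.41 and 4.41 at 10 to 11 reads, 4.07 and 4.26 at 11 to 13 reads, and 3.83 and 3.83 above. The lower width remained in each of these 5 classes, with medians of 239 against 249 bp, 228 against 257.5 bp, 231 against 243 bp, 240.5 against 262 bp and 284 against 310 bp. Intervals within these classes were not computed. A −log10 q over 20, which marks the more strongly called peaks, was reached by 589 members, or 25.7% (24.0 to 27.6), where the background over all peaks was 31.9%. In the comparison peaks the share was 30.4% (27.1 to 33.9), a difference of −4.65 percentage points (−8.54 to −0.909). Peaks over 6-fold made up 9.48% of the members, 10.1% of the comparison peaks and 12.8% of all peaks.

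**Figure D2:**
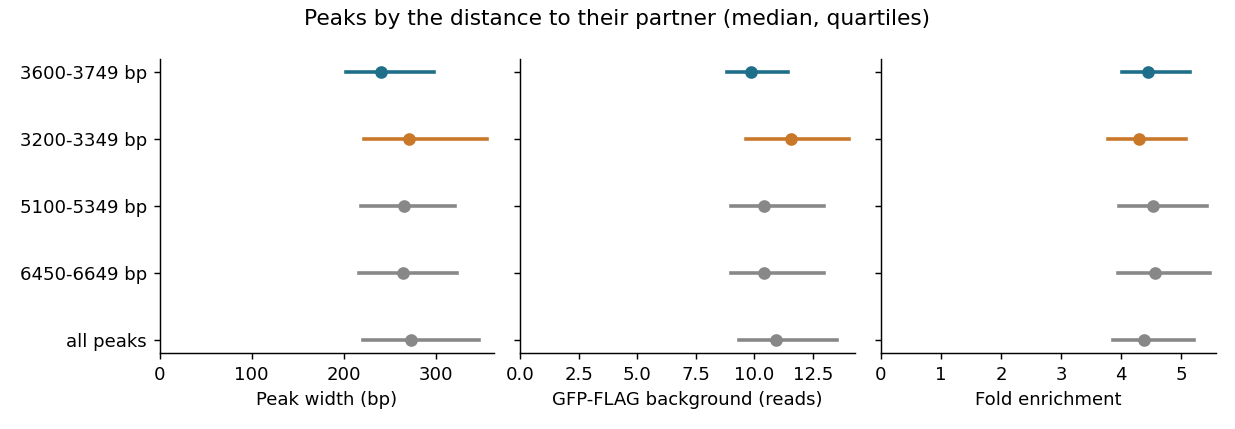
Peak width (bp), GFP-FLAG background at the summit (reads) and fold enrichment of VRS5 peaks by the distance to their partner, with points for medians and bars for the quartiles over peaks. Members (blue) have the lowest median width, 240 bp, and the lowest median background, 9.87 reads, of the 5 sets shown, while their median fold enrichment of 4.45 lies between those of the comparison peaks (orange, 4.29) and of the pairs 6.45 to 6.65 kb apart (4.56).

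The strength of 1 partner did not go with that of the other. Across the 1119 pairs, the log2 fold enrichments of the partners had a correlation of −0.01, and across the 338 comparison pairs one of 0.04. The stronger partner had a median fold enrichment of 4.97 (quartiles 4.46 and 5.70) and the weaker one of 4.09 (3.78 and 4.43). Their ratio had a median of 1.19 (quartiles 1.09 and 1.34) and reached 2.68. It was below 1.1 in 328 pairs and 2 or more in 25 pairs. The comparison pairs had 4.95 and 3.89 with a median ratio of 1.21, and sorting the partners by strength makes a gap between them in any set. The GFP-FLAG backgrounds of the partners, which share libraries and neighbourhood, correlated at 0.25 and the widths at 0.16 (0.30 and 0.16 in the comparison). The partner at the lower coordinate was the stronger in 586 pairs, 52.4% (95% Wilson interval 49.4 to 55.3), an interval that includes equal shares. Both partners passed a −log10 q of 20 in 81 of the 1119 pairs and neither did in 630, against 35 and 167 of the 338 comparison pairs. Of single peaks, 25.7% of the members, 30.4% of the comparison peaks and 31.9% of all peaks passed it.

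**Figure D3:**
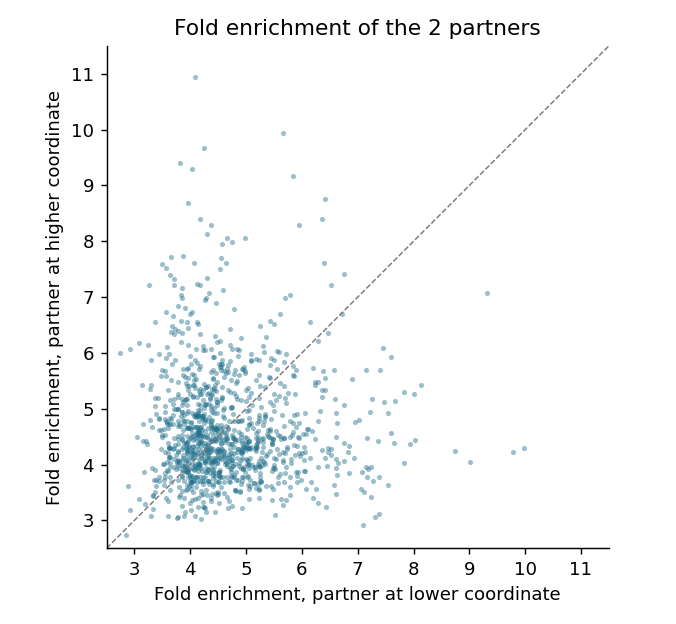
Fold enrichment over GFP-FLAG of the partner at the lower coordinate (horizontal axis) and at the higher coordinate (vertical axis) for the 1119 member pairs, 1 point per pair, with equal values on the dashed line. The points form no band along the line, and the highest, at 10.95-fold, has a partner of 4.08-fold.

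Fold enrichment reached its highest value in a pair of very unequal partners. The strongest member lay on 5H from 30984692 to 30985106 (MorexV3), with a pileup of 94 reads over a background of 7.67 and a fold enrichment of 10.95. Its partner, 3711 bp away, from 30981051 to 30981437, had 38 reads over 8.55 and a fold enrichment of 4.08. The nearest protein-coding gene, LOC123399835, was 50.7 and 54.4 kb away.

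The 10 pairs with the highest fold enrichment of the weaker partner lay on 1H, 3H, 4H, 5H, 6H and 7H. The first of them was on 5H, where peaks from 113440863 to 113441167 and from 113444562 to 113444972 had pileups of 79 and 56 reads over backgrounds of 7.59 and 7.06. Their fold enrichments were 9.31 and 7.07, with summits 3667 bp apart, and LOC123395367 was the nearest protein-coding gene at 16.2 and 19.9 kb. On 6H, wide peaks of 719 and 597 bp from 269069656 to 269070374 and from 269073410 to 269074006 had pileups of 97 and 108 reads over 13.5 and 13.7, fold enrichments of 6.75 and 7.41, and lay 646 and 649.7 kb from the nearest gene, LOC123402313. These wide partners on a high background were unlike most members. The pair nearest to the end of a chromosome among the 10 lay on 4H from 596119673 to 596123704, at 97.7% of its length, with partners of 6.72- and 6.69-fold, 22.4 kb from LOC123447412 and 24.8 kb from LOC123447413. On 3H the partners from 580305310 to 580305524 and from 580308943 to 580309496 had fold enrichments of 6.53 and 7.22 and lay 50.1 and 46.5 kb from LOC123445313. A pair on 1H from 268697443 to 268701312, with 6.41- and 8.75-fold, lay 349.9 and 346 kb from LOC123430719. One on 7H from 484765998 to 484769876, with 6.40- and 7.62-fold, lay 161 and 165 kb from LOC123407791. No summit of these 10 pairs came as close as 15 kb to a protein-coding gene, where the share was 9.13% of all members and 11.8% of all peaks. With so few pairs, no difference is read from this.

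The stretch between the partners was mostly empty of other peaks. Another summit lay there in 29 of 1119 member pairs, 2.59% (95% Wilson interval 1.81 to 3.70), and in 29 of 338 comparison pairs, 8.58% (6.04 to 12.1). Greenscreen regions, stretches with many reads in the GFP-FLAG libraries themselves, lay between the summits of 4 member pairs (0.357%) and 3 comparison pairs (0.888%). A summit within 1 kb of a greenscreen region was found for 14 members, 0.612% (0.365 to 1.02), against 1.40% of the comparison peaks and 1.67% of all peaks.

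Outside the pairs, other summits were frequent at a further distance. In 191 member pairs, 17.1% (95% Wilson interval 14.98 to 19.4), a summit lay 4.25 to 4.85 kb beyond 1 of the partners, away from the other, here called the outer summit. Among the comparison pairs this was so in 16 of 338, or 4.73% (2.93 to 7.55). In the windows of equal length just inside and just outside, the shares of member pairs were 5.63% and 4.74%. The window was chosen after the positions of other summits had been seen, and its share is therefore a description. In this window the full list held 2184 pairs of summits at any place, 263 of them at 4.3 to 4.35 kb and 205 at 4.5 to 4.55 kb. When the rule was applied anew to the list of peaks with a −log10 q over 20, it chose 85 pairs. Of these, 3.53% (95% Wilson interval 1.21 to 9.87) had an outer summit in that shorter list. The share of comparison pairs in that list was not computed.

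**Figure D4:**
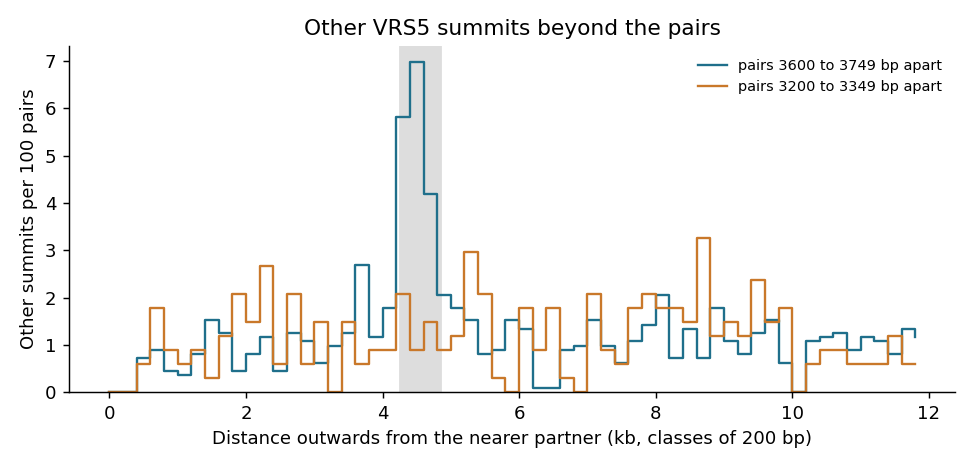
Other VRS5 summits per 100 pairs (vertical axis) by their distance outwards from the nearer partner (horizontal axis, kb, classes of 200 bp), for member pairs (blue) and comparison pairs (orange). Members have a single high block inside the shaded window of 4.25 to 4.85 kb, where 17.1% of the pairs have a summit, and the gaps near 10 kb in both sets and near 6.4 kb in the members come from leaving out peaks with a summit 9.9 to 10.25 kb away.

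Pairs with an outer summit formed triplets of peaks, and no pair had outer summits on both sides. There were 192 outer summits, as 1 pair had more than 1, and none was itself a member. They lay at the lower coordinate in 95 cases and at the higher in 97, and beyond the stronger partner in 94, so that neither the direction along the chromosome nor the strength of the partner went with the side. From the far partner to the outer summit the triplets measured 8191 bp at the median, between 7882 and 8565 bp, with an SD of 167 bp. The SD was 38.3 bp within the pair and 158 bp from the near partner to the outer summit, and all 3 lengths were limited by the windows of 150 and 600 bp that chose the summits. Another summit lay between the near partner and the outer summit in 4 cases. Each chromosome held 22 to 34 of these pairs.

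The near partner, in the middle of the triplet, had the lowest median width of the 3 peaks. Its median width was 218.5 bp (95% interval 208 to 230), against 244 bp (232 to 254) in the far partner and 240 bp (222 to 252) in the outer peak. Its median pileup was 46 reads, against 51 and 50.5 reads. Its GFP-FLAG background was 9.23 reads (9.05 to 9.41), against 9.87 (9.499 to 10.4) and 10.7 (10.4 to 10.9). The near partner was narrower than the far one in 117 of 192 triplets, 60.9% (53.9 to 67.6), and had the lower background in 60.9% as well. The fold enrichments differed little, with medians of 4.45 (4.32 to 4.59), 4.39 (4.28 to 4.48) and 4.28 (4.20 to 4.37), and the outer peak was the strongest of the 3 in 50 triplets, 26.0% (20.3 to 32.7). Outer summits came within 15 kb of genes coding for proteins in 14 cases, 7.29%, where the share was 9.13% of members and 11.8% of all peaks. No interval was computed for the share of outer summits.

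The distance to the outer summit is given for 4 classes of the distance inside the pair. Where the partners were 3.6 to 3.64 kb apart, 19 of 24 outer summits lay less than 4.5 kb from the near partner (79.2%, 95% Wilson interval 59.5 to 90.8). Where they were 3.64 to 3.69 kb apart this held for 40 of 82 (48.8%, 38.3 to 59.4), at 3.69 to 3.7 kb for 3 of 11 (27.3%, 9.75 to 56.6), and at 3.7 to 3.75 kb for 34 of 75 (45.3%, 34.6 to 56.6). The last 3 intervals overlapped widely and the first only just cleared them. The limit of 4.5 kb and the classes were set after the distances had been seen, so that these shares are a description.

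The triplet with the highest fold enrichment of its weakest peak lay on 1H, 110.3 to 118 kb from LOC123411259. Its far partner, from 368324591 to 368324968, had 73 reads over a background of 7.82 and a fold enrichment of 8.39. The near partner, from 368320912 to 368321150, had 59 reads over 8.44 and 6.36-fold, and the outer peak, from 368316412 to 368316727, had 71 reads over 8.62 and 7.49-fold. Spacings were 3666 and 4534 bp, 8200 bp in all. The other 4 of the 5 strongest triplets lay on 4H, 6H, 5H and 3H, with total lengths of 7893, 8357, 8205 and 7970 bp, all with the outer summit at the lower coordinate and all more than 50 kb from a gene.

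Runs of 3 peaks with both spacings in the range were few. The 12 members in 2 pairs each formed the middle of such a run, giving 12 runs with 36 peaks on 2H to 7H, and no run was longer. On 5H, summits at 134766048, 134769720 and 134773442 were 3672 and 3722 bp apart with fold enrichments of 4.69, 4.13 and 4.28. The run with the strongest single peak lay on 7H from 213506095 to 213513664, with fold enrichments of 3.44, 3.71 and 7.22. Among these 24 spacings the shortest was 3605 bp and the longest 3746 bp. Some members also lay in pairs at the other frequent distances: 49 had a summit 5.1 to 5.35 kb away and 26 one 6.45 to 6.65 kb away. Chosen by the same steps, 2493 and 2121 other peaks of the 99518 lay in pairs at these distances. By pairs, 5.72% (4.50 to 7.24) had a partner with a summit at either of these distances, against 7.40% (5.06 to 10.7) of the comparison pairs. Leaving out peaks with a summit 9.9 to 10.25 kb away removes most member pairs with a summit 6.45 to 6.65 kb outwards from the near partner. It removes a smaller part of such comparison pairs. The 26 members and the 5.72% are thus lowered by the rule, and no difference is read from these shares. With such peaks kept, the share of member pairs was 6.35% (5.09 to 7.88).

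Most members lay far from genes. The median summit was 78.5 kb from the nearest of the 30627 protein-coding genes on 1H to 7H (95% interval 74.3 to 83.0, quartiles 38.5 and 157 kb), against 94.8 kb (84.3 to 103) for the comparison peaks and 80.1 kb over all peaks. Within 15 kb of a gene lay 209 members, 9.13% (8.02 to 10.4), where the share over all peaks was 11.8%. The comparison peaks stood at 8.68% (6.83 to 10.98), and the difference of 0.451 percentage points had an interval from −2.10 to 2.68. Members within 2 kb of a gene numbered 14, 0.612% (0.365 to 1.02), against 1.82% (1.07 to 3.09) of the comparison peaks and 1.95% of all peaks. Beyond 100 kb lay 40.7% of the members (38.7 to 42.8), 47.9% of the comparison peaks (44.3 to 51.6) and 42.5% of all peaks. When the rule was applied to peaks with a −log10 q over 20 alone, 5.17% of the 174 peaks it chose lay within 15 kb. Pairs 3.64 to 3.69 kb apart had 7.42% of their peaks within 15 kb, and pairs 3.7 to 3.75 kb apart 10.96%, with no interval computed.

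Where a member lay near a gene, its partner mostly did too, as the distance between them is short against the window. Both partners were within 15 kb of the same gene in 89 pairs, only 1 partner was in 27 pairs, and 149 genes had a member this close. Product names were not given in the annotation table used here, so that these genes are named by their identifiers and no role is stated. Among the 102 genes with both partners within 15 kb, the highest fold enrichment of the weaker partner was at LOC123448814 on 4H (426368130 to 426372947), with partners of 5.74- and 5.29-fold 11.7 and 7.96 kb from the gene. At LOC123427260 on 2H (561485706 to 561501173) they were 5.88- and 5.26-fold at 10.4 and 14.0 kb. At LOC123446632 on 4H (467220342 to 467222473) they were 5.59- and 5.23-fold at 5.32 and 8.95 kb. For LOC123425868 on 2H the values were 5.23- and 5.87-fold at 12.7 and 8.98 kb. A pair on 7H was shared by the neighbours LOC123412462 and LOC123412463, with 5.70- and 5.195-fold, its nearer summit 7.61 and 8.98 kb from them. LOC123410135 on 7H, LOC123446569 on 4H and LOC123400067 on 5H had weaker partners of 5.17-, 5.05- and 4.98-fold, and LOC123441809, described with the genes that hold a summit, lay between the last 2. The nearest member to the MADS-box gene SOC1-like (LOC123437294 on 1H), which promotes flowering in other plants, lay 2628 kb away with a fold enrichment of 3.95. This distance concerns members only. The paper reports a VRS5 peak upstream of this gene, with binding in a mobility shift assay and activation of a reporter.

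Only 8 members had their summit inside a protein-coding gene, 0.350% (95% Wilson interval 0.177 to 0.688), where the background over all peaks was 0.786%. In the comparison this was so for 6 of 714 peaks, 0.840% (0.386 to 1.82). The 8 summits were the whole of 4 pairs, each inside a single gene. LOC123441809 on 3H (418534118 to 418573674) held summits at 418550511 and 418554168, at 41.4% and 50.7% of its span, with fold enrichments of 4.99 and 5.68. LOC123427760 on 2H (608881221 to 608940746) held summits of 5.02- and 4.07-fold at 81.4% and 87.6% of its span, and LOC123441706 on 3H (289580143 to 289652860) ones of 4.01- and 4.77-fold at 75.7% and 80.9%. In LOC123403387 on 6H (151491444 to 151502464) they were 3.76- and 3.04-fold, over GFP-FLAG backgrounds of 20.3 and 21.0 reads, the highest of the 8. The gene spans used here do not separate exons from introns. No member pair had a whole protein-coding gene between its partners, as these 4 were the only such genes to touch the stretch between the summits. A protein-coding gene touched that stretch in 4 of 1119 member pairs and in 4 of 338 comparison pairs.

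Pseudogenes held 10 member summits, 0.437% (0.238 to 0.803), near the 0.537% of all peaks. In the comparison this was so for 1 of 714 peaks, 0.140% (0.0247 to 0.789). The 10 member summits again were 5 whole pairs, in LOC123397473 on 1H, LOC123408953 and LOC123408377 on 7H, LOC123405194 on 6H and LOC123450478 on 4H. The strongest of them, in LOC123397473, had partners of 4.53- and 5.74-fold at 121974614 and 121978229. Within 15 kb of a pseudogene lay 2.01% of the members (1.51 to 2.67), 4.34% of the comparison peaks (3.08 to 6.10) and 2.84% of all peaks. For long non-coding RNA genes these shares were 0.612% (0.365 to 1.02), 0.840% (0.386 to 1.82) and 1.68%.

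Member pairs were found along all chromosomes. They made up 2.12% of the peaks on 1H (95% Wilson interval 1.88 to 2.39) and up to 2.68% on 7H (2.43 to 2.96), with 125 to 194 pairs per chromosome. The median member fold enrichment was 4.37 to 4.53 by chromosome and the median width 231 to 251 bp, below the median over all peaks on each chromosome. Successive pairs were 2.40 Mb apart at the median (quartiles 1.07 and 4.84 Mb), and 43 of 1112 gaps were within 100 kb. Of 417 full bins of 10 Mb, 49 held no pair, the median bin held 2, and the highest count was 9 pairs, on 5H from 110000001 to 120000000.

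The share of peaks that were members changed along the chromosomes. With each chromosome cut into 10 equal parts and the 7 pooled, members made up 1.95% of the peaks in the first part (1.67 to 2.28) and 2.88% in the next (2.58 to 3.22), fell to 1.72% in the fifth (1.48 to 1.995), rose to 2.64% in the ninth (2.34 to 2.97) and were lowest in the last, at 1.65% (1.38 to 1.97). Comparison peaks stayed between 0.622% and 0.809% in all 10 parts, with overlapping intervals. The share of members within 15 kb of a gene ran from 3.15% in the third part to 25.9% in the last, and that of all peaks from 4.44% in the fifth to 31.5% in the last, and both shares were highest at the end of the chromosomes.

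**Figure D5:**
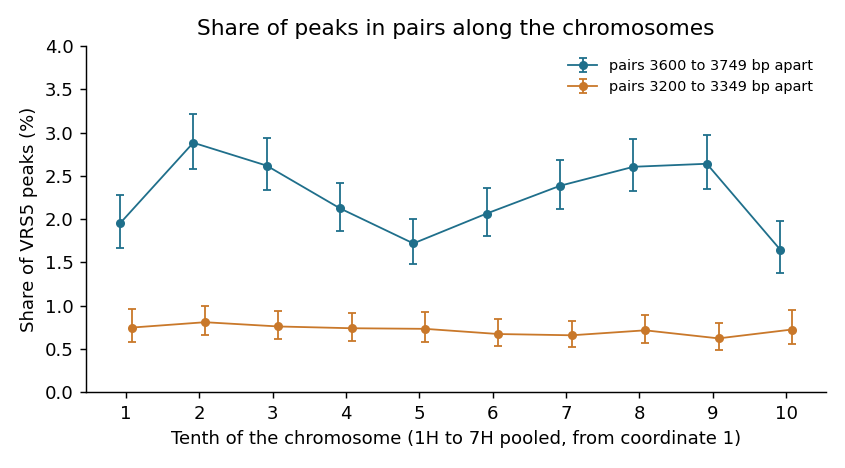
Share of VRS5 peaks (%, vertical axis) in member pairs (blue) and comparison pairs (orange) by position in 10 equal parts of the chromosome (horizontal axis, 1H to 7H pooled), with 95% Wilson intervals. Members are most frequent in the part next to the first, at 2.88%, and least in the last, at 1.65%, while the comparison stays between 0.622% and 0.809%.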

How the data were processed

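DAP-seq reads were trimmed with Trimmomatic 0.39 and mapped to MorexV3 with BWA 0.7.17, per the submitters' processing notes and the study's methods. The authors pooled 6 VRS5-FLAG and 6 GFP-FLAG libraries, called peaks with MACS2 2.2.7.1, removed peaks on greenscreen regions with bedtools and kept those with a −log10 q over 10. The authors' pileup signal is the number of VRS5-FLAG reads at the summit. Their fold enrichment is a deposited ratio, pileup plus 1 over the scaled local GFP-FLAG background plus 1, and this background has a minimum, 6.91 here. Each q-value was deposited as its −log10. The deposited score of a greenscreen region derives from its −log10 q.

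Here the background was derived from pileup and fold enrichment, and distances between summits were counted per chromosome. Finding pairs was tested on simulated data, where 200 of 200 planted pairs among 6400 peaks were recovered. The planted pairs and other peaks stood far from each other, so shared partners and the leaving out of peaks were not tested. Gene spans came from the RefSeq annotation of MorexV3. Shares have Wilson intervals, counts Poisson, medians order-statistic and differences of shares Newcombe intervals, all at 95%. The members and lists were chosen with earlier results of these data known. Named were the 10 pairs and up to 10 genes with the highest fold enrichment of the weaker partner, genes and pseudogenes holding a summit, the strongest member, runs of 3, and SOC1-like; triplets were added after seeing the data. Alternatives varied the distance range, the list, the position in the peak, the comparison and the gene set. The software was matplotlib 3.10.9, scipy 1.17.1, pandas 2.3.3 and numpy 2.4.6 under Python 3.11.15. Genome sequence, motifs, gene strands, gene products and the other genes the study names were not analysed here.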

Additional observations from a re-analysis of the deposited data

How the results depend on the processing

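No paired analysis was possible because peaks were called on pooled reads and each peak has 1 value for all replicates; for the same reason no replicate could be left out. A range of 3.65 to 3.7 kb gave 878 peaks in 427 pairs, with 7.29% of peaks within 15 kb of a gene and 27.8% with a −log10 q over 20. A range of 3.55 to 3.8 kb gave an excess over the comparison of 2.56 per unit of length, with 3.94% of pairs holding another summit between the partners. Applied anew to peaks with a −log10 q over 20, the rule chose 174 peaks in 85 pairs. Here partners and summits 9.9 to 10.25 kb away were both sought in this shorter list alone. The share of these 174 peaks within 15 kb of a gene was 5.17%, their median fold enrichment 5.70 and their median distance to a gene 110.4 kb. The excess of these pairs was 2.24, and 1.18% of them had a summit at 5.1 to 5.35 or 6.45 to 6.65 kb. The cause of these shifts was not tested. Measured between midpoints, the excess was 2.77. By construction of the window, 1.40% of members lay within 5 kb and 34.1% within 50 kb of a gene, and with all annotated genes 11.1% lay within 15 kb, at a median distance of 66.3 kb. Keeping peaks with a summit 9.9 to 10.25 kb away, merging summits within 500 bp and a margin of 1 kb around greenscreen regions moved none of the 9 planned values beyond its interval, or a count beyond 1.5 times. Leaving out each chromosome in turn kept the excess between 3.25 and 3.37 and the share near genes between 8.50% and 9.73%. With pairs 4 to 4.15 kb apart as the comparison, the excess was 3.44, and these 689 peaks had a median width of 285 bp, a background of 12.0 reads and a fold enrichment of 4.249. Of values followed up after seeing the data, the median member width was 244 bp at 3.55 to 3.8 kb, 235 bp by midpoints and 279 bp for strong pairs. An outer summit was found for 3.53% of these strong pairs (1.21 to 9.87). What depth limits was not tested. The share of members with a motif was not run, as it needs genome sequence.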
